A study of Sus scrofa with 6 samples.

Results

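The genes with a symbol of the form ZNF plus a number were followed in longissimus dorsi, a long muscle along the spine, of Wannanhua pigs, a local Chinese breed, and Yorkshire pigs, a lean commercial breed. They are the rows of the deposited expression table whose Ensembl pig identifier maps to such a symbol, ZNF385A included. There were 169 of them among the 17627 genes of the table, of which 10384 have a symbol. The samples were 3 libraries from Wannanhua and 3 from Yorkshire muscle, all labelled as 5 months old. No treatment or altered allele is named for either breed. The design text of the series speaks of piglets instead. The labels give each library a replicate number but do not say that the libraries came from separate animals, so the p-values reflect only how these libraries vary, part of which may be technical. Poly-A RNA was sequenced, and reads of a gene and of an antisense partner could not be told apart.

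A ZNF symbol is given to proteins that fold around zinc. Most carry a row of C2H2 fingers that read DNA, and in mammals many of these have a KRAB domain as well, through which they recruit the corepressor TRIM28 and the histone methyltransferase SETDB1 to silence transposons and genes. Others bind RNA or proteins instead, among them ZNF106 and the ZNF385 family. The symbol is thus a naming convention and not a pathway, and related fingers are similar in sequence. How the authors shared reads that match several copies is not stated.

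Sums of the scaled counts, the authors' read counts divided by a library factor, lay between 16373268 and 19251335 per library. The most frequent low value, taken as about 1 read, lay between 0.914 and 1.09. Yorkshire 1 stood apart from the other libraries: it had 10726 genes at 1 FPKM or more (fragments per kilobase of transcript, scaled to library depth), against 11491 to 11979 in Wannanhua and 11539 and 11796 in the other Yorkshire libraries. Muscle fibre markers were plainly present, with 7 of the 13 listed genes matched by symbol. Their summed level was 36323 to 44910 FPKM in Wannanhua and 36642 to 50021 FPKM in Yorkshire. Listed genes without a match may still be present under an identifier that has no symbol. Single markers differed: CASQ1, the calcium store protein of fast fibres, was called lower in Wannanhua (log2 fold change -1.24, limma adjusted p = 0.0435). TNNC2, of fast fibres, was below and DES, desmin, above every Yorkshire library without passing (limma adjusted p = 0.138 and 0.0706). The slow fibre gene TNNT1 stood at 8663, 10095 and 2415 FPKM in Wannanhua 1, 2 and 3 and at 3950, 1240 and 2134 FPKM in Yorkshire 1, 2 and 3, and TNNC1 was likewise high in Wannanhua 1 and 2. Among 8 lists of other cell types, the summed level of 1 list did not overlap between breeds. Lymphocyte markers, with 6 of 8 matched by symbol, summed to 2.38 to 3.23 FPKM in Wannanhua and 3.87 to 4.20 FPKM in Yorkshire. Among them MS4A1 was listed at 0 in at least 1 library. The part of these markers in the breed differences described next was not tested, and in whole muscle more cells of a type cannot be told apart from more RNA per cell.

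ZNF genes were mostly expressed at low levels. The median of their mean levels over the 6 libraries was 1.88 FPKM, beside 2.91 FPKM for all genes of the table. There were 51 ZNF genes under 1 FPKM, 78 from 1 to under 5 FPKM, 30 from 5 to under 20 FPKM and 10 at 20 FPKM or more. Only 5 were listed at 0 in any library, namely ZNF365, ZNF536, ZNF648, ZNF660 and ZNF804A. Between 112 and 132 ZNF genes reached 1 FPKM in a Wannanhua library, and between 103 and 118 in a Yorkshire library. Within a breed the libraries differed by a median coefficient of variation of 18.0% in Wannanhua and 22.6% in Yorkshire over the ZNF genes tested, close to the 19.4% and 21.5% over all genes tested.

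**Figure D1:**
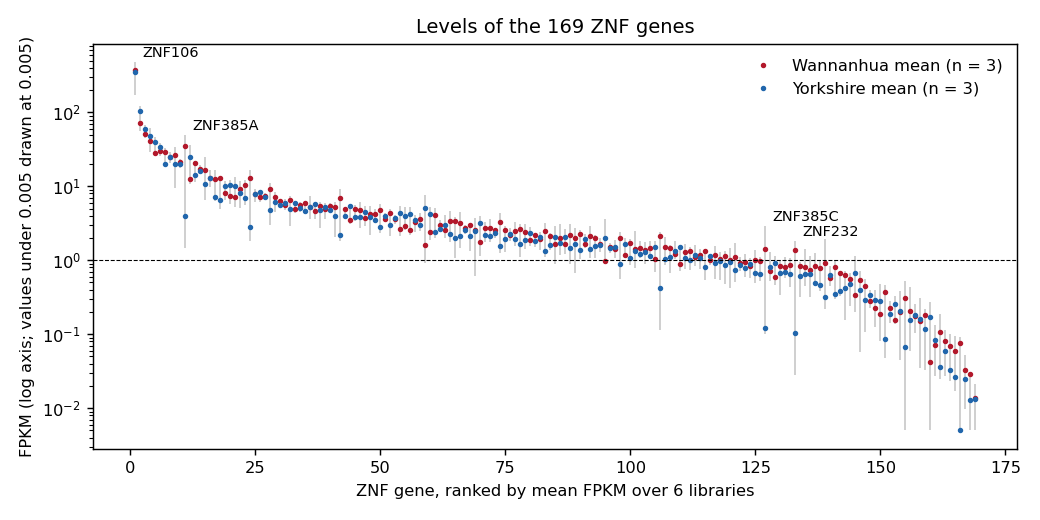
FPKM on a log axis of the 169 ZNF genes, ranked by their mean over 6 libraries; points are breed means of 3 libraries, grey lines run from the lowest to the highest library, and the dashed line marks 1 FPKM. ZNF106 lies above all others, and most genes lie between 0.1 and 20 FPKM, with the means of the breeds close together except at a few genes such as ZNF385A.

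ZNF106, an RNA-binding protein whose loss in mice leads to degeneration of nerve and muscle, was by far the most abundant. It stood at 346, 307 and 474 FPKM in Wannanhua 1, 2 and 3 and at 174, 445 and 445 FPKM in Yorkshire 1, 2 and 3. The breeds overlapped, and Yorkshire 1 alone lay below every Wannanhua library. On the log2(FPKM + 1) scale the fold change, Wannanhua minus Yorkshire, was 0.18 ± 0.39 (SE; limma adjusted p = 0.821), and without Yorkshire 1 it turned to -0.27 (limma adjusted p = 0.544; 0.544 to 0.9996 over its 15 alternatives). ZNF106 set the share of all scaled counts that fell in ZNF genes, which was 0.415%, 0.445% and 0.480% in the Wannanhua libraries, against 0.259%, 0.497% and 0.438% in Yorkshire 1, 2 and 3. Leaving ZNF106 out, the shares were 0.164%, 0.205% and 0.163% in Wannanhua 1, 2 and 3. In Yorkshire 1, 2 and 3 they were 0.140%, 0.167% and 0.148%, so Yorkshire 2 lay above Wannanhua 1 and 3.

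The next most abundant ZNF genes were ZNF358, ZNF277, ZNF768, ZNF524 and ZNF207. ZNF277, which in human cells binds the ribosomal protein RPS2, stood at 45.7, 50.6 and 58.3 FPKM in Wannanhua and 54.7, 66.8 and 58.7 FPKM in Yorkshire. ZNF768, a DNA-binding protein, stood at 29.2, 43.2 and 48.7 FPKM in Wannanhua and 61.4, 37.4 and 45.3 FPKM in Yorkshire. ZNF207, which brings the checkpoint protein BUB3 to chromosomes in cell division, stood at 25.8, 28.8 and 36.5 FPKM in Wannanhua and 32.3, 30.7 and 38.3 FPKM in Yorkshire. All 3 genes overlapped between the breeds, with log2 fold changes of -0.22, -0.25 and -0.16 for ZNF277, ZNF768 and ZNF207 and limma adjusted p of 0.497 or more. ZNF358 and ZNF524 are described with the genes that were lower in Wannanhua.

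The comparison of the breeds asks which genes differ in expression between their muscles. ZNF385A, ZNF385B, ZNF662 and ZNF770 were higher in Wannanhua muscle and passed the threshold, and no ZNF gene was lower past it. Their levels differed between breed means by 3.20-fold to 8.84-fold. Of the 169 ZNF genes, 120 reached 1 FPKM in 3 or more libraries and were tested, and 4 of these (3.33%) had an adjusted p under 0.05 by limma's moderated test over 11791 genes. Over all genes tested the share was 3.05%, with 1.76% higher and 1.29% lower in Wannanhua, so the share of ZNF genes called was near that of genes at large. ZNF662 reached 1 FPKM in Wannanhua libraries alone, so passing the filter already required a difference. Leaving out every gene that passed it through 1 breed alone, 3 of 118 ZNF genes (2.54%) and 2.66% of 11626 genes were called. The median log2 fold change of the tested ZNF genes was 0.14, beside 0.12 for all genes tested, and after quantile normalization these medians were -0.01 and 0.00. With that scaling 138 genes were higher and 200 lower, against 208 and 152 as deposited. Values on this scale understate the change of genes with low levels.

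**Figure D2:**
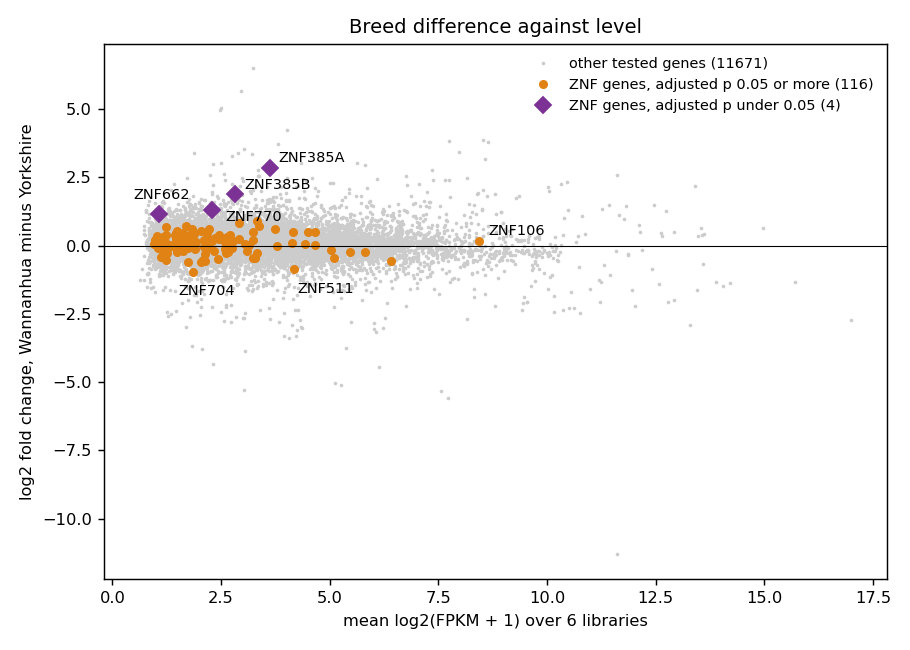
Log2 fold change, Wannanhua minus Yorkshire, against mean log2(FPKM + 1) over 6 libraries for 11791 tested genes; grey points are other genes, orange points ZNF genes that did not pass and purple diamonds the 4 that did. The ZNF genes lie within the cloud of all genes, and all 4 called ones lie above the line at 0.

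The calls rested on most of the libraries at once. Without Wannanhua 3 the same 4 genes were called (3.33% of ZNF genes tested, beside 524 calls or 4.44% over all genes). Without Wannanhua 1, Wannanhua 2, Yorkshire 2 or Yorkshire 3 the test called 0 ZNF genes. Over all genes there were 41, 30, 58 and 27 calls in these fits. At an unadjusted limma p under 0.05 they had 14, 12, 20 and 14 ZNF genes, and the share of all genes there was not counted. Without Yorkshire 1 the only ZNF gene called was ZNF704 (0.833%, beside 190 calls or 1.61% over all genes). ZNF704 was lower in Wannanhua and is named here after its values were seen.

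The ZNF385 family holds 4 proteins with fingers of the kind that binds double-stranded RNA. ZNF385A, also called HZF, is known in mouse and human cells as a partner that steers p53 toward arrest of the cell cycle, and in mouse neurons as a carrier of messenger RNA. ZNF385A (ENSSSCG00000000292) stood at 40.5, 49.5 and 16.2 FPKM in Wannanhua 1, 2 and 3 and at 1.47, 5.59 and 4.96 FPKM in Yorkshire 1, 2 and 3. Every Wannanhua library lay above every Yorkshire library, with Wannanhua 3 well below the other two and Yorkshire 1 lowest. The slow fibre genes TNNC1 and TNNT1 were also highest in Wannanhua 1 and 2 and much lower in Wannanhua 3. Within Yorkshire they were instead highest in Yorkshire 1, where ZNF385A was lowest. Their part in the ZNF385A difference was not tested. The means were 35.4 ± 17.3 FPKM in Wannanhua and 4.0 ± 2.22 FPKM in Yorkshire (SD, n = 3), a log2 fold change of 2.85 ± 0.50 (SE; limma adjusted p = 0.0397). It ran from 2.40 without Yorkshire 1 to 3.32 without Wannanhua 3, with an adjusted p between 0.0163 and 0.140 over 15 alternatives, 9 of which kept the call.

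ZNF385B (ENSSSCG00000023181), a close relative that in human B cells bears on p53-driven cell death, had the smallest adjusted p of all ZNF genes. It stood at 12.8, 16.6 and 9.47 FPKM in Wannanhua and at 1.81, 2.23 and 4.52 FPKM in Yorkshire. The breeds did not overlap, and again Wannanhua 3 was the lowest of its breed. The means were 13.0 ± 3.58 FPKM in Wannanhua and 2.85 ± 1.46 FPKM in Yorkshire (SD, n = 3). The difference on the log2 scale was 1.89 ± 0.31 (SE; limma adjusted p = 0.0338), and 8 of 15 alternatives kept the call (adjusted p 0.0254 to 0.125).

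ZNF385C (ENSSSCG00000028051), the third relative, was below the filter and has no test in that fit. It stood at 0.871, 2.88 and 0.505 FPKM in Wannanhua and 0.0996, 0.1005 and 0.168 FPKM in Yorkshire. All Wannanhua libraries lay above all Yorkshire libraries, and Wannanhua 2 was more than 3 times either of its peers. In scaled counts these are 84.5, 278 and 49.4 in Wannanhua and 9.83, 9.61 and 16.5 in Yorkshire. A limma fit on log2(scaled count + 1), added after seeing the data because the FPKM scale compresses low genes, gave ZNF385C a log2 fold change of 3.07 ± 0.60 (SE; limma adjusted p = 0.0381). With the FPKM filter lowered to 0.3, which it passed in Wannanhua alone, its adjusted p was 0.149, and with no filter 0.196.

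ZNF385D (ENSSSCG00000011208), the fourth, did not share that pattern of values. It stood at 0.604, 3.73 and 3.40 FPKM in Wannanhua and 2.90, 2.06 and 2.49 FPKM in Yorkshire. The Yorkshire libraries lay inside the Wannanhua range, which Wannanhua 1 opened downward (log2 fold change -0.11 ± 0.41 SE, limma adjusted p = 0.901). Whether its difference departs from those of its relatives was not tested.

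**Figure D3:**
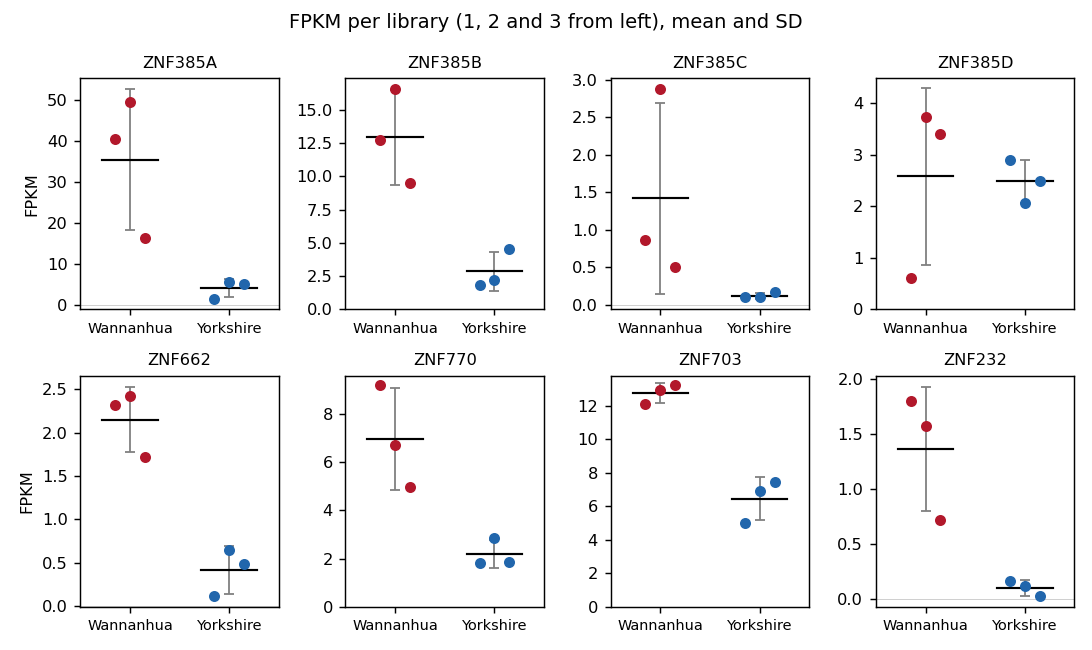
FPKM per library of the 4 ZNF385 genes and of ZNF662, ZNF770, ZNF703 and ZNF232, Wannanhua in red left of Yorkshire in blue; points run from library 1 to 3, black lines are means and grey bars SD (n = 3). In 7 of the 8 panels every Wannanhua library lies above every Yorkshire library; ZNF385D is the exception.

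ZNF770 (ENSSSCG00000004799), a protein of many C2H2 fingers, stood at 9.17, 6.71 and 4.98 FPKM in Wannanhua and 1.82, 2.85 and 1.85 FPKM in Yorkshire. The lowest Wannanhua library, Wannanhua 3, still lay above the highest Yorkshire library. The means were 6.95 ± 2.11 FPKM in Wannanhua and 2.17 ± 0.59 FPKM in Yorkshire (SD, n = 3). The difference on the log2 scale was 1.31 ± 0.25 (SE; limma adjusted p = 0.0424). After quantile normalization the adjusted p was 0.0569, and over its 14 alternatives it ran from 0.0276 to 0.156, with 6 keeping the call.

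ZNF662 (ENSSSCG00000011292) stood at 2.32, 2.42 and 1.72 FPKM in Wannanhua and 0.114, 0.646 and 0.488 FPKM in Yorkshire. The breeds were far apart, but no Yorkshire library reached 1 FPKM, so the gene entered the test through its Wannanhua libraries alone and had to differ. ZNF518A was the other ZNF gene that entered in this way. ZNF662 had a log2 fold change of 1.17 ± 0.21 (SE; limma adjusted p = 0.0403), which was 2.29 with a pseudocount of 0.1 and 2.50 on scaled counts, with adjusted p of 0.0699 and 0.0546 there (0.0245 to 0.142 over its 14 alternatives). Its scaled counts were 63.9, 67.9 and 48.3 in Wannanhua and 3.28, 18.3 and 13.7 in Yorkshire.

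ZNF703, a corepressor that acts through partners and is amplified in human breast tumours, lay next to the threshold. It stood at 12.1, 12.9 and 13.3 FPKM in Wannanhua and 4.99, 6.88 and 7.47 FPKM in Yorkshire. The Wannanhua libraries were tightly grouped and the breeds did not overlap. Its difference on the log2 scale was 0.90 ± 0.19 (SE; limma adjusted p = 0.0512), which passed with the filter raised to 5 FPKM and on scaled counts (adjusted p = 0.0422 and 0.0491; 0.0422 to 0.169 over its 15 alternatives). Its paralogue ZNF503 stood at 25.1, 14.5 and 9.91 FPKM in Wannanhua and 17.6, 6.48 and 8.15 FPKM in Yorkshire, with overlapping breeds (limma adjusted p = 0.443).

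The fit on scaled counts tested 152 of the 169 ZNF genes and called 6 of them (3.95%), all higher in Wannanhua, beside 3.07% of all genes there. These were ZNF232, ZNF385A, ZNF385B, ZNF385C, ZNF703 and ZNF770. ZNF232 (ENSSSCG00000022999) was below the FPKM filter, at 1.80, 1.57 and 0.724 FPKM in Wannanhua and 0.167, 0.119 and 0.0280 FPKM in Yorkshire. Its scaled counts were 59.9, 51.0 and 23.6 in Wannanhua and 5.46, 3.85 and 0.914 in Yorkshire, the last about 1 read. The gene passed the minimum of 10 scaled counts, and the FPKM filter at 0.3, in Wannanhua libraries alone and so had to differ. Without genes that passed the minimum through 1 breed alone, 5 of 150 ZNF genes (3.33%) and 2.79% of all genes were called on scaled counts. On that scale the difference was 3.45 ± 0.59 (log2, SE; limma adjusted p = 0.0290), and with the FPKM filter at 0.3 it was 1.07 (adjusted p = 0.0472), with no filter 1.07 as well (adjusted p = 0.0702).

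Of the 120 tested ZNF genes, 31 (25.8%) had libraries that did not overlap between breeds, 23 higher and 8 lower in Wannanhua. The share was 29.9% of all genes tested, 20.3% higher and 9.63% lower. At an unadjusted p under 0.05 there were 23 ZNF genes (19.2%), 14 higher and 9 lower, against 22.1% of all genes, 14.6% higher and 7.53% lower. A log2 fold change of at least 1 in size was found in 4 ZNF genes (3.33%) and in 6.98% of all genes. The log2(FPKM + 1) scale understates changes of genes with low levels. The median of mean levels was 3.29 FPKM for tested ZNF genes and 6.68 FPKM for all genes tested, and the part of level in these shares was not tested. Positive log2 fold changes made up 65% of ZNF genes and 62.6% of all genes. By each of these measures ZNF genes lay near or below the share of all genes.

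**Figure D4:**
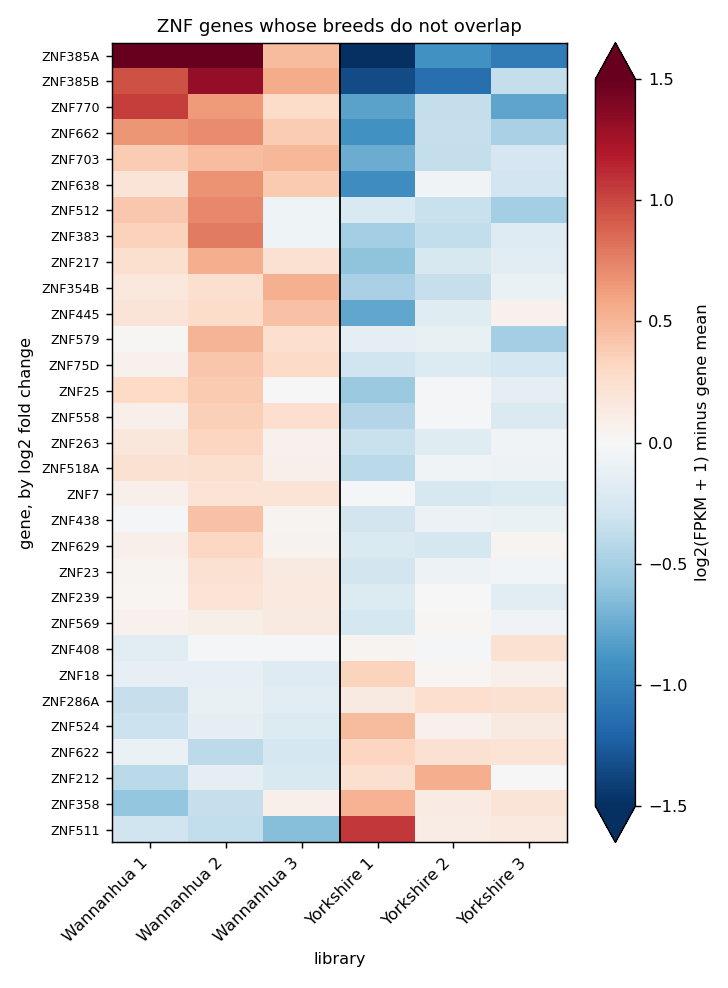
Log2(FPKM + 1) minus the gene's mean in 6 libraries (colour, saturated beyond 1.5) for the 31 tested ZNF genes whose breeds do not overlap, ordered by log2 fold change. ZNF385A and ZNF385B show the widest contrast at the top, and ZNF511 at the bottom owes much of its contrast to Yorkshire 1.

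Besides ZNF703, the higher genes without overlap that were largest in size were ZNF638, ZNF512 and ZNF383, of which none passed. ZNF638, a nuclear RNA-binding protein that promotes fat cell formation in mouse cells, stood at 7.64, 11.1 and 8.95 FPKM in Wannanhua and 2.97, 6.28 and 5.22 FPKM in Yorkshire (log2 fold change 0.84 ± 0.26 SE, limma adjusted p = 0.124). ZNF512 stood at 3.30, 4.34 and 2.10 FPKM in Wannanhua and 1.77, 1.58 and 1.27 FPKM in Yorkshire (limma adjusted p = 0.137). ZNF383 stood at 12.2, 16.8 and 8.96 FPKM in Wannanhua and 6.30, 7.08 and 8.10 FPKM in Yorkshire (limma adjusted p = 0.146). In ZNF383 the breeds nearly met, at Wannanhua 3 and Yorkshire 3. Of the 23 higher genes 19 were not called, and their log2 fold changes began at 0.19.

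The 8 lower genes without overlap had log2 fold changes between -0.87 and -0.16 and limma adjusted p between 0.132 and 0.609. ZNF511 stood at 13.6, 13.0 and 10.6 FPKM in Wannanhua and 36.5, 18.5 and 18.9 FPKM in Yorkshire. Yorkshire 1 was well above the other Yorkshire libraries; the difference on the log2 scale was -0.87 ± 0.28 (SE; limma adjusted p = 0.132) and -0.56 without Yorkshire 1. ZNF358, the second most abundant ZNF gene, stood at 56.5, 66.7 and 89.2 FPKM in Wannanhua and 122, 92.7 and 96.7 FPKM in Yorkshire, with Wannanhua 3 just below Yorkshire 2 (log2 fold change -0.56, limma adjusted p = 0.201). ZNF622, which in human cells takes part in maturing the large ribosomal subunit, stood at 3.99, 3.09 and 3.45 FPKM in Wannanhua and 5.70, 5.30 and 5.20 FPKM in Yorkshire (log2 fold change -0.51, limma adjusted p = 0.132). ZNF524, which binds telomeric DNA in human cells, stood at 26.5, 29.9 and 28.7 FPKM in Wannanhua and 46.6, 34.8 and 36.7 FPKM in Yorkshire (log2 fold change -0.45, limma adjusted p = 0.195). The remaining 4 were ZNF212, ZNF286A, ZNF18 and ZNF408, with log2 fold changes of -0.52, -0.41, -0.29 and -0.16.

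ZNF genes with known parts in muscle, fat or energy metabolism formed a list of 15. Of these, 9 were found by symbol and 8 were tested. The log2 fold changes of all 8 were above 0 (median 0.33), beside 62.6% of all genes tested. Of the 8, ZNF106 and ZNF609 turned negative without Yorkshire 1, and ZNF692 after quantile normalization or without Yorkshire 3. ZNF385A was the 1 that passed, beside 3.05% of all genes. ZNF423, which commits mouse precursor cells to the fat lineage, stood at 2.97, 3.20 and 1.28 FPKM in Wannanhua and 1.33, 1.53 and 1.11 FPKM in Yorkshire. Wannanhua 1 and 2 lay above all Yorkshire libraries and Wannanhua 3 among them (log2 fold change 0.54 ± 0.26 SE, limma adjusted p = 0.274). ZNF521, its paralogue, which opposes fat cell formation in mice, was under 1 FPKM throughout, at 0.932, 0.795 and 0.811 FPKM in Wannanhua and 0.316, 0.764 and 0.770 FPKM in Yorkshire, and was not tested. ZNF516, which activates the thermogenic gene programme of mouse brown fat, stood at 2.82, 3.08 and 3.06 FPKM in Wannanhua and 1.34, 2.85 and 2.10 FPKM in Yorkshire (limma adjusted p = 0.331).

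Adipocyte markers, with 4 of 8 matched by symbol, summed to 16.0 to 24.4 FPKM in Wannanhua and 4.23 to 18.2 FPKM in Yorkshire. Yorkshire 1 was lowest, and the part of these markers in the values above was not tested. ZNF395, ZNF609 and ZNF692 also overlapped between the breeds, with log2 fold changes of 0.28, 0.17 and 0.08 and limma adjusted p of 0.617, 0.752 and 0.819. ZNF609 turned to -0.10 without Yorkshire 1, and ZNF692 turned to -0.06 after quantile normalization and to -0.005 without Yorkshire 3.

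The other role lists held few calls. Over all genes tested, 3.05% were called, 22.1% had an unadjusted limma p under 0.05 and 62.6% had a positive log2 fold change. At an unadjusted p under 0.05 the list of chromatin complexes and promoter binding had 6.67% of its tested genes. The lists of RNA and of development and a mixed list each had 25%. Among 12 tested genes of RNA, ribosome and cell division, 7 positive and 5 negative with a median log2 fold change of 0.02, 1 was called, ZNF385B. Among 15 tested genes of chromatin complexes and promoter binding, 12 positive and 3 negative with a median of 0.17, limma called 0 (1 at an unadjusted p under 0.05). That gene was ZNF217, a corepressor-associated factor amplified in human breast tumours, at 1.78, 2.43 and 1.78 FPKM in Wannanhua and 0.549, 0.991 and 1.11 FPKM in Yorkshire (limma adjusted p = 0.108). Among 8 tested genes of development and blood lineages, with a median of 0.25, limma called 0 (2 at an unadjusted p under 0.05). These were ZNF703, described above and higher in Wannanhua, and ZNF366, known from dendritic cells, with a log2 fold change of -0.60. ZNF366 stood at 1.89, 2.85 and 2.37 FPKM in Wannanhua and 2.74, 5.30 and 4.60 FPKM in Yorkshire (limma adjusted p = 0.202). Among 4 tested genes of the mixed list, with a median of 0.00, limma called 0 (1 at an unadjusted p under 0.05). This was ZNF622, described above, which is also counted in the list of RNA, ribosome and cell division. Some other genes stand in more than 1 list as well.

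In ZNF704, named after its values were seen, Yorkshire 1 lay far from the other Yorkshire libraries. The gene stood at 1.64, 1.62 and 1.48 FPKM in Wannanhua and 0.920, 7.54 and 6.73 FPKM in Yorkshire. Its log2 fold change of -0.96 ± 0.53 (SE; limma adjusted p = 0.334) was the lowest of all tested ZNF genes. Yorkshire 1 was the lowest of the 6 libraries in 53 of the 120 tested ZNF genes (44.2%), against 36.3% of all genes tested. Among the Yorkshire libraries alone it was lowest in 60% of tested ZNF genes and 51.1% of all genes. The median of Yorkshire 1 minus the mean of Yorkshire 2 and 3 on the log2 scale was -0.22 over tested ZNF genes and -0.13 over all genes tested.

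Members next to each other on the chromosome were compared by gene order in RefSeq's Sscrofa11.1 annotation, which differs from the Sscrofa10.2 build the submitters name, so no coordinates are given. Of the 169 genes, 150 were found there by symbol, and 38 of them made up 21 pairs of direct neighbours. In 9 pairs both genes were tested, and in all 9 both log2 fold changes had the same sign, 8 positive and 1 negative. After quantile normalization the signs were shared in 5 of the 9 pairs and on scaled counts in 7. The pairs were not separate observations, since ZNF565 and ZNF529 each belonged to more than 1 of them. Some signs rested on very small values, such as 0.003 for ZNF32. No gene of the 9 pairs passed the threshold. Examples are ZNF146 and ZNF565, at 0.51 and 0.03, and ZNF75D and ZNF449, at 0.51 and 0.23, while ZNF524 and ZNF865 were the negative pair at -0.45 and -0.03. With positive values in 62.6% of all genes, shared signs among so few pairs are given as a description.

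The machinery through which KRAB zinc fingers silence their targets showed no call. Of 37 listed genes 28 were matched by symbol and 26 were tested. There were 14 log2 fold changes above 0 and 12 below (median 0.09). Limma called 0 of these genes, where 3.05% of all genes tested were called. At an unadjusted limma p under 0.05 there were 7, of which 6 were higher and 1 lower. That is 26.9% of the list, beside 22.1% of all genes tested, 14.6% higher and 7.53% lower. TRIM28 was not matched by symbol and is not analysed here. SETDB1, the methyltransferase that it recruits, stood at 4.36, 4.02 and 3.63 FPKM in Wannanhua and 2.79, 2.94 and 2.96 FPKM in Yorkshire. The breeds did not overlap, but the gene did not pass (log2 fold change 0.36 ± 0.16 SE, limma adjusted p = 0.241). Of the 26 tested genes of the list, 11 had breeds that did not overlap, beside 29.9% of all genes tested. Krüppel-like and SP factors are other C2H2 proteins without a ZNF symbol. Of 25 listed, 13 were matched by symbol and 11 were tested. Limma called 0 of the 11, beside 3.05% of all genes tested (3 at an unadjusted p under 0.05, which 22.1% of all genes had). Log2 fold changes were positive in 10 and negative in 1 (median 0.39), beside 62.6% positive over all genes tested. SP1, counted as positive, stood at 7.74, 8.76 and 8.67 FPKM in Wannanhua and 2.52, 9.52 and 9.25 FPKM in Yorkshire. There Yorkshire 1 alone lay below Wannanhua. KLF9, nearest the threshold, stood at 66.7, 57.4 and 62.4 FPKM in Wannanhua and 23.4, 38.7 and 29.0 FPKM in Yorkshire. Its breeds did not overlap (limma adjusted p = 0.0506), which held for 3 of the 11 genes, beside 29.9% of all genes tested.

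**Figure D5:**
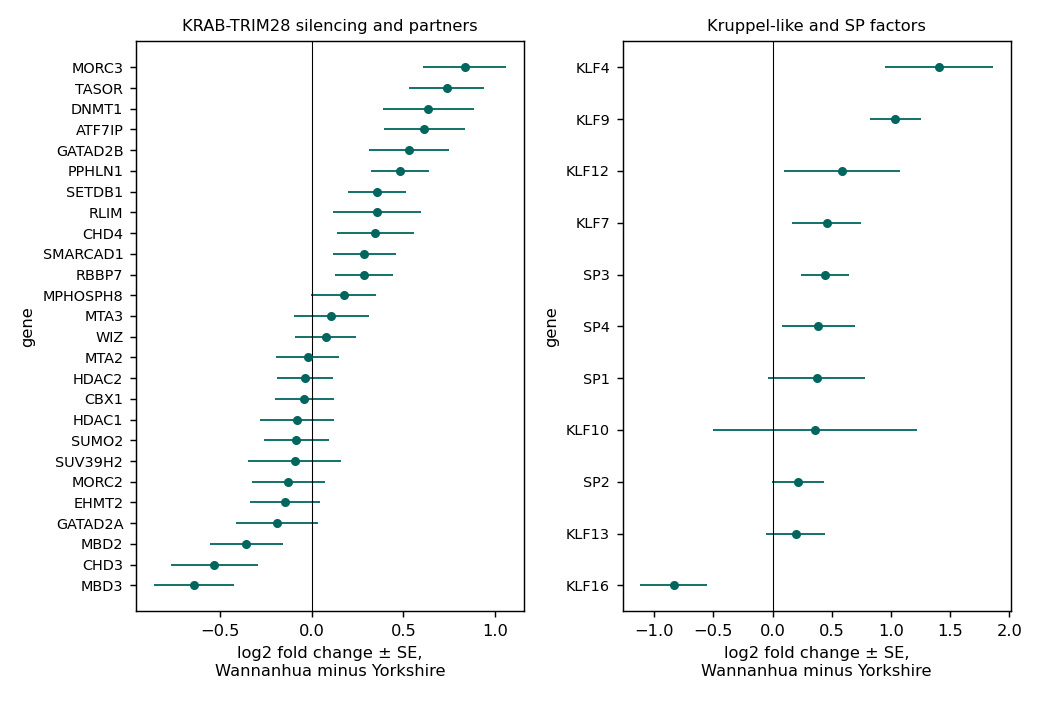
Log2 fold change with its SE, Wannanhua minus Yorkshire, of 26 tested genes of KRAB-TRIM28 silencing and 11 tested Krüppel-like and SP factors, each sorted by size. Values lie on both sides of 0 in the silencing list and mostly above it in the other, and no gene passed the adjusted threshold.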

How the data were processed

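The authors deposited, for each library, an FPKM value per gene and a value headed as a count that is not whole; per the file headers and values the latter is a signal, gene counts divided by an unstated library factor. CASAVA 1.7, TopHat2 2.0.6 and the build Sscrofa10.2 appear, without a role, in the submitters' processing notes. How reads were counted, with which annotation and with what treatment of multiple matches, was not given in the sources used here. Symbols were looked up by Ensembl identifier, which matched 58.9% of the genes. From the FPKM values, log2(FPKM + 1) was fitted in limma 3.58.1 (R 4.3.3) with breed as the only term, trend and robust moderation, over genes at 1 FPKM or more in at least 3 libraries, with Benjamini-Hochberg adjustment over 11791 genes and a threshold of 0.05. Before the fit, 7 genes were left out that had a scaled count of 10000 or more in at least 1 library but stood at 0 in 1 or 2 of the 6; none is a ZNF gene. The fit was tested on simulated data.

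The members and gene lists were chosen with earlier results of these data known. Genes named in the text are the called ZNF genes, ZNF385A, the 6 most abundant, the 8 largest changes without overlap in each direction and the muscle and fat list; others are said to be named after their values were seen or serve as examples of a list or of gene neighbours. ZNF503, ZNF385C, ZNF385D, ZNF232, ZNF217, ZNF366, SP1 and KLF9 were so chosen. The planned grouping by protein features needs sequences not used here. Alternatives were other pseudocounts, filters and scalings, a replicate block, each library left out, and the added fit on scaled counts. Of the marker lists fixed, 1 is not reported here.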

Additional observations from a re-analysis of the deposited data

How the results depend on the processing

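The count of 4 called ZNF genes, and the 360 calls over all genes, became 0 and 69 with no filter on low FPKM (30 ZNF genes at an unadjusted p under 0.05). The same counts ran from 0 to 4 and from 27 to 524 when each library was left out. The other alternatives called 3 to 6 ZNF genes, apart from the replicate block. These were 2.5% to 7.32% of the ZNF genes tested, beside 2.21% to 5.42% of all genes. Both highest shares came from the 5 FPKM filter. With a library left out, between 37 and 48 of 120 tested ZNF genes had no overlap between breeds, beside 36% to 42.9% of all genes tested. A breed of 2 libraries separates more easily. With the filter at 5 FPKM it was 12 of 41 tested ZNF genes, beside 31.9% of all genes tested. The median log2 fold change was -0.0086 after quantile normalization, which centres all genes, and ran from 0.06 to 0.20 over libraries left out. At the 5 FPKM filter 1 Krüppel-like or SP factor was called, where 5.42% of all genes tested were called. Directions turned for ZNF692 (-0.061 after quantile normalization, -0.0049 without Yorkshire 3) and, without Yorkshire 1, for ZNF106 (-0.27) and ZNF609 (-0.098); the cause was not tested. Over libraries left out these ranged from -0.0049 to 0.18, from -0.27 to 0.41 and from -0.098 to 0.39. After each gene's breed mean was subtracted, same-numbered libraries of the breeds correlated at 0.10, -0.01 and 0.11. With 3 libraries per breed these values cannot decide whether the numbers pair the libraries. With the replicate block 205 genes (1.74%) and 1 ZNF gene (0.833%), ZNF385A, were called. The count tests planned (edgeR, DESeq2) were not run because the deposited counts are not whole. With 3 libraries per breed and ZNF levels mostly under 5 FPKM, low levels limit what the FPKM scale can show of the 49 ZNF genes below the filter.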

Other observations

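Among the 49 ZNF genes below the filter, 12 had libraries that did not overlap between breeds, 10 higher and 2 lower in Wannanhua, at mean levels of at most 0.93 FPKM. That is 24.5% of them, against 15.1% of all 5829 genes below the filter, and the median of the mean levels was 0.509 FPKM for the ZNF genes and 0.189 FPKM for all; the difference in share was not tested. ZNF827, a factor of chromatin and telomeres in human cells, was one of them, with scaled counts of 28.5, 31.0 and 15.02 in Wannanhua and 3.28, 5.77 and 8.23 in Yorkshire.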
